A study of Mus musculus with 32 samples.

Results

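The genes of oxidative phosphorylation were followed on 32 expression arrays of mouse cerebrum and spinal cord from controls and after photothrombosis, in which a dye in the blood is activated by light so that the vessels under the beam clot. Members were all genes whose symbols follow the naming of the nuclear-encoded subunits, namely Ndufa, Ndufb, Ndufc, Ndufs and Ndufv with a number, Sdha to Sdhd, all Uqcr genes, the Cox4 to Cox8 families, Cyc1, Cycs and all Atp5 genes. This gave 86 of 19505 genes, each measured by 1 probe. No filter on level was applied, so all 86 entered every test. There were 35 subunits of complex I, 4 of complex II, 9 of complex III with cytochrome c1, 1 cytochrome c gene, 20 subunits of complex IV and 17 of ATP synthase. Ndufa4 and Ndufa4l2, named after complex I, were counted with complex IV, where the Ndufa4 protein is found. Subunits encoded in the mitochondrial genome were not analysed here.

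All animals were male wild-type C57BL/6J mice of 6 to 12 weeks and 20 to 25 g, and the labels name no further allele or agent. Cerebral photothrombosis and spinal cord photothrombosis were each represented by 4 control arrays and by 4 arrays from day 1, 4 from day 3 and 4 from day 7. Whether controls were operated on, and whether every sample is a separate animal, is not in the labels, so p-values measure only the spread among the samples at hand, which may be technical. Values are log2 intensities that the authors centred per probe, so they compare arrays for 1 gene and give no order of levels between genes. Day 3 and day 7 had been centred apart from the controls, and their differences from control rest on an offset rebuilt for each probe, whose uncertainty was part of the test. A difference was called when limma gave an adjusted p under 0.05 over all 19505 genes.

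Several arrays stood apart in ways that bear on the members. Spinal controls 1 and 2 carried the most skeletal muscle RNA, with a mean of 3.37 and 2.73 over 18 muscle markers. The mean was 1.06 and 0.11 in spinal controls 3 and 4 and -0.31 to 0.81 in the other 28 arrays. Spinal day 3 replicate 1 had an array weight of 0.225. Of the markers that tell the tissues apart, all 8 measured myelin genes were higher in spinal than in cerebral controls and 6 of 8 hypothalamus and pituitary genes were lower. Sample titles run in separate number ranges per group, and should the ranges stand for batches, then group and batch cannot be told apart.

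Oxidative phosphorylation moves electrons from NADH and succinate through complexes I to IV to oxygen, and ATP synthase uses the proton gradient this builds. Complex I and complex III pass electrons on through a few catalytic core subunits surrounded by many small accessory subunits, and neurons depend heavily on the pathway to restore ion gradients after firing. Complex IV and ATP synthase also have isoforms of single subunits that differ between tissues, among them Cox6a2, Cox7a1 and Cox8b of heart and skeletal muscle and Cox6b2, known chiefly from testis.

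The start sites of these genes are often rich in sites for nuclear respiratory factor 1 (NRF1) and for ETS factors such as GABP. RefSeq windows on GRCm38.p6 were at hand for 70 of the 86 members, in 75 windows of 250 bases upstream of the start. The NRF1 motif, GCGCA and GCGC with any 1 base between them, searched on both strands, was in 18.7% of these 75 windows and in 3.74% of all 32851 windows of the same length. The ETS motif CCGGAAG on both strands was in 16.0% against 6.91%, and the YY1 motif AAGATGG on both strands was in 1.33% against 4.49%. A match was counted whether or not it overlapped a match to another motif, and 3 members held both an NRF1 and an ETS match. The windows that follow belong to Sdha, which rose in the cerebrum, Atp5k, which fell in the cord, Cox6b2, with the largest rise at day 7, its general counterpart Cox6b1, and the muscle isoform Cox8b. Each runs 5′ to 3′ on the gene's strand and ends at the base before the start, and capitals mark matches to these motifs.
Sdha, chr13:74350241-74350490, minus strand: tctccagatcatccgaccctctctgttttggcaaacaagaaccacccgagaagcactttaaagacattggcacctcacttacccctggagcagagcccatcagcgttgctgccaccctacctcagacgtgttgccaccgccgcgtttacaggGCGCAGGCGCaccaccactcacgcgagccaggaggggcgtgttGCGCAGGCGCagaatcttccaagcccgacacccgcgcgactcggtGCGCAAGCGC
Atp5k, chr5:108434400-108434649, minus strand: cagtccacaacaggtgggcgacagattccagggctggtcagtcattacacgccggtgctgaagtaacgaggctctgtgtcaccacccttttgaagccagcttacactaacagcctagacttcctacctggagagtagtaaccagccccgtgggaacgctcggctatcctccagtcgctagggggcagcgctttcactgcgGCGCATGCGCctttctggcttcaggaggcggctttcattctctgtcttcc
Cox6b2, chr7:4753095-4753344, minus strand: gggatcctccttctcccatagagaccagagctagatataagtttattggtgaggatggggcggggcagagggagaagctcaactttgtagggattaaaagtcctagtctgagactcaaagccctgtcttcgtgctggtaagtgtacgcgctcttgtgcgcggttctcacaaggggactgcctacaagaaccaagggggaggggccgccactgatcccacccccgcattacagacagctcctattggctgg
Cox6b1, chr7:30626115-30626364, minus strand: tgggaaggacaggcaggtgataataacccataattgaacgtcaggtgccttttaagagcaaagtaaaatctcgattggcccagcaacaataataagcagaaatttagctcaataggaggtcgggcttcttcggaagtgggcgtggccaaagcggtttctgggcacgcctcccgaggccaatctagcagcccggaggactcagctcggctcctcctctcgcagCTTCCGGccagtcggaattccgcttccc
Cox8b, chr7:140900447-140900696, minus strand: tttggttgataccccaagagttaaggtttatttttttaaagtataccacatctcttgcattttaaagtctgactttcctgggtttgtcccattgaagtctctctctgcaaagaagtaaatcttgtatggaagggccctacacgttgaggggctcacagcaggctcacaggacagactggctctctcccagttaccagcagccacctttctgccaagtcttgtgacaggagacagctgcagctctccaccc

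Sdha held 3 NRF1 matches, which begin 98, 55 and 10 bases before the start, and Atp5k held 1, a palindrome that reads on both strands. Cox6b1 held an ETS match on the reverse strand, beginning 28 bases before the start, while the windows of Cox6b2 and Cox8b held none of the 3 motifs in these letters. In the spinal cord at day 7, 7 of 13 members with an NRF1 match were lower than control and 1 was higher, against 29 lower and 2 higher of 57 members without one. The median log2 differences of these sets were -0.45 and -0.42. For the ETS motif, 7 of 12 with a match and 29 of 58 without were lower, with a median of -0.43 in each set.

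The control groups were compared to see how the tissues differed without injury. Of the 86 members, 25 were higher and 13 lower in spinal than in cerebral controls, where 34.8% of all genes passed the test (17.2% higher and 17.6% lower). The median log2 difference of the members was 0.08, against -0.02 for all genes. Among the higher members were small accessory subunits such as Atp5k, the e subunit of ATP synthase (0.68 ± 0.12 SE, adjusted p = 4.31e-05), and Ndufa6 of complex I (0.62 ± 0.11, adjusted p = 2.71e-05). Another was Cox7a2l, counted here with complex IV (0.61 ± 0.11, adjusted p = 4.96e-05). The lower members included catalytic subunits, a grouping seen after the values were known. Ndufs7, a core iron-sulfur subunit of complex I, was instead higher (0.41). Sdha, the flavoprotein of complex II, differed by -0.77 ± 0.19 (adjusted p = 0.0013), and Sdhb, its iron-sulfur subunit, by -0.45 ± 0.08 (adjusted p = 7.27e-05). Atp5a1, the alpha subunit of ATP synthase, differed by -0.62 ± 0.08 (adjusted p = 2.87e-07) and Atp5b, the catalytic beta subunit, by -0.42 ± 0.08 (adjusted p = 9.16e-05). Atp5pb, subunit b of the stalk, differed by -0.62 ± 0.15 and Ndufa9, next to the quinone site of complex I, by -0.64 ± 0.11. Cox7a1 and Cox8b, at 1.65 ± 0.25 and 1.37 ± 0.33, are described with the muscle isoforms. With spinal controls 3 and 4 only, 16 members were higher and 10 lower.

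In the injured spinal cord most subunits that changed fell. At day 1, 44 members were lower and 5 higher than control, where 31.9% of all genes passed (16.1% lower and 15.8% higher), with a member median of -0.28 against 0.02 for all genes. At day 3, 22 were lower and 2 higher, where 20% of all genes passed (9.65% lower and 10.3% higher), with medians of -0.22 and -0.08. At day 7, 42 were lower and 4 higher, where 31.8% passed (16.6% lower and 15.2% higher), with medians of -0.41 and -0.10. The 4 arrays of day 7 all lay below all 4 controls in 54 members and above them in 6, against 24.8% and 19% of all genes. These days share their controls, so they are not independent of each other.

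Those counts were recomputed without spinal controls 1 and 2, which had the highest muscle marker means. Control 3 remained, and in this setting 11 of 18 muscle markers were still higher, and 1 lower, in spinal than in cerebral controls. With controls 3 and 4 only, 35 members were lower and 4 higher at day 1, 12 lower and 3 higher at day 3, and 32 lower and 5 higher at day 7. Without spinal day 3 replicate 1, 16 were lower and 3 higher at day 3, and without spinal control 1 or control 3 it was 14 lower and 2 higher in each case. After quantile normalisation 8 were lower and 2 higher at day 3. When no allowance was made for the separate centring, 39 were lower and 6 higher at day 3. Shares of all genes were not set beside these or the other recounts given here. The recounts as printed therefore do not tell a change in the members from a change in how many genes pass.

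**Figure D1:**
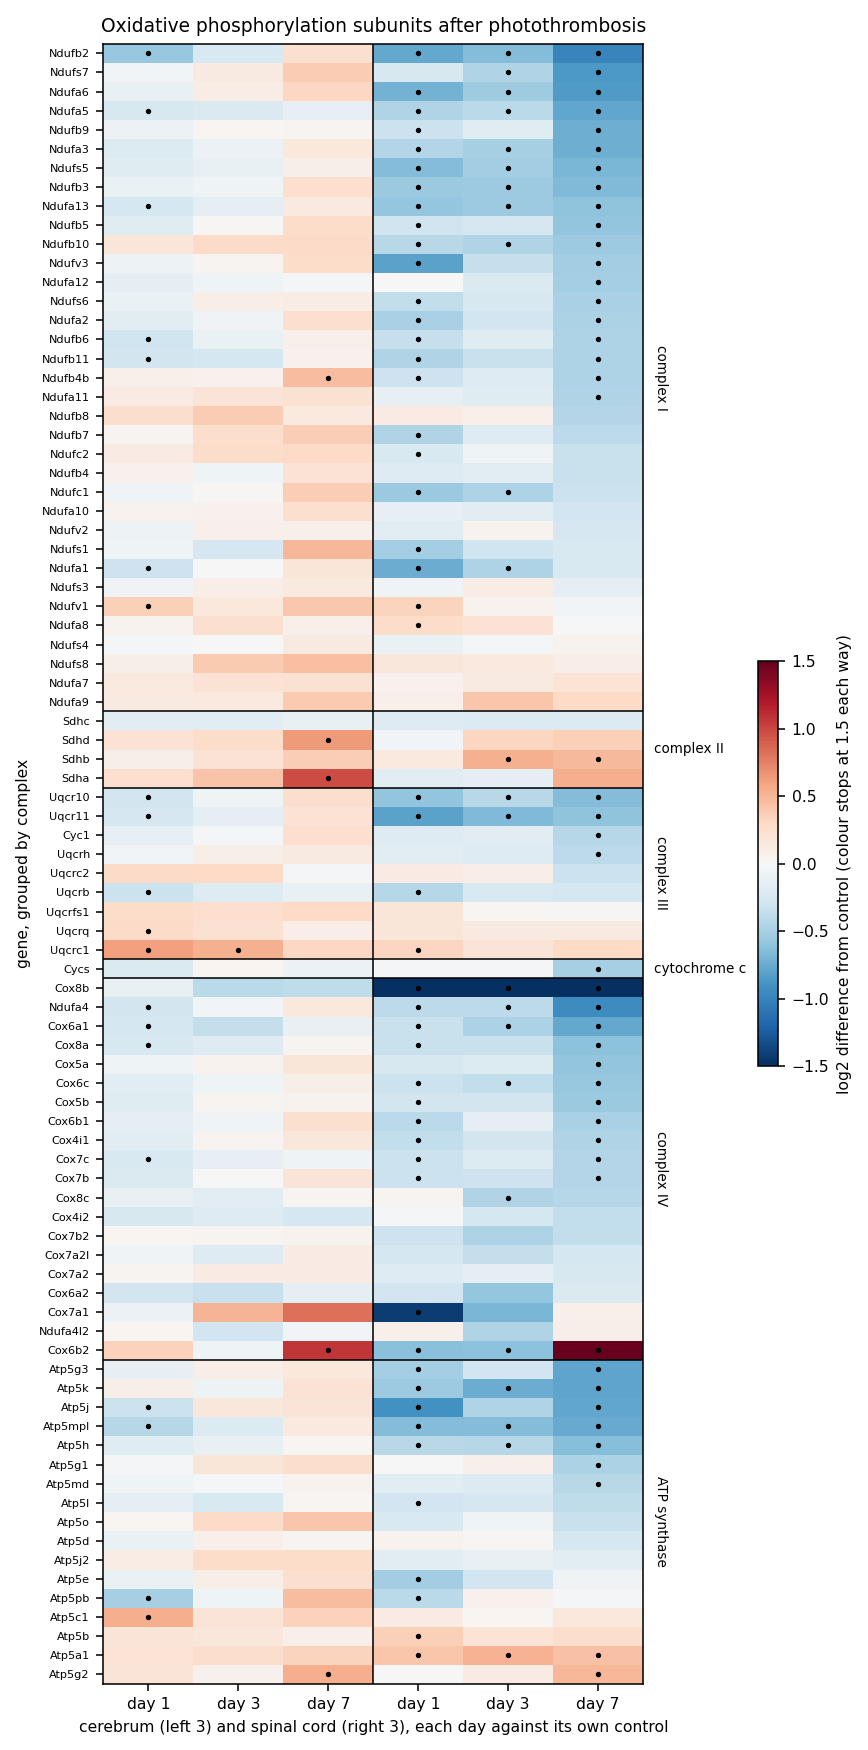
Log2 differences of the 86 members from their own control at each day, in the cerebrum (left 3 columns) and the spinal cord (right 3 columns), grouped by complex and sorted within it by the spinal day 7 value. Black dots mark differences called by limma. Spinal columns are mostly blue, with 44, 22 and 42 members lower, while the cerebral day 7 column is mostly red, with 74 of 86 values above 0.

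In the injured cerebrum fewer members were called than in the cord, as were fewer of all genes. The calls at day 1 were mostly lower. At day 1, 16 were lower and 4 higher, where 17.1% of all genes passed (8.22% lower and 8.91% higher), and the member median was -0.08 against -0.01. At day 3, 1 member was higher and 0 lower, where 6.34% of all genes passed (3.5% higher and 2.85% lower), with medians of 0.03 and -0.03. At day 7, 5 were higher and 0 lower, where 6.62% passed (4.52% higher and 2.1% lower), with medians of 0.19 and -0.05. The calls at day 7 were near the shares of all genes. Of the 86 members, 74 lay above 0, as did 8202 of all 19505 genes. In 38 members all 4 day 7 arrays lay above all 4 controls and in 0 they all lay below, against 13.9% and 12.9% of all genes. Scaling arrays to their 75th percentile moved the day 1 split to 9 lower and 7 higher, and with cerebral controls 1 and 2 only it was 6 lower and 2 higher. Without cerebral control 2 it was 6 lower and 5 higher, without cerebral day 1 replicate 2 it was 7 lower and 3 higher, and without cerebral day 1 replicate 4 it was 8 lower and 4 higher. At day 3, quantile normalisation gave 4 higher and 1 lower, and the values as deposited gave 6 higher and 4 lower. At day 7, 28 members were higher and 0 lower when the allowance was left out, and 2 were higher with cerebral controls 1 and 2 only.

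Markers of other cells moved over the same days in these bulk samples, where fewer cells of a type and less RNA per cell cannot be told apart. Of 14 neuronal genes, 3 were lower and 1 higher at spinal day 1, 5 lower and 1 higher at day 3, and 13 lower and 0 higher at day 7. Their mean over the list ran from -0.17 to -0.03 in the 4 spinal controls and from -1.81 to -1.18 at spinal day 7. In the cerebrum at day 7, 1 of the 14 was lower and 1 higher, and the list mean ran from -0.15 to 0.00 against -0.04 to 0.06 in controls. All 11 macrophage and microglia genes were higher at spinal day 3 and day 7, with list means of 3.88 to 4.37 at day 7 against -0.38 to -0.17 in controls. In the cerebrum 10 of the 11 were higher at day 1, 9 at day 3 and 10 at day 7, with list means of 0.95 to 1.58, 1.13 to 1.36 and 1.97 to 2.59 against -0.69 to -0.59 in controls. At spinal day 1, 5 were higher. Their part in the results on the members was not tested. Of 8 astrocyte genes, 6 were higher at cerebral day 1, 3 at day 3 and 4 at day 7. Their median log2 differences there were 0.81, 0.82 and 0.82. In the cord 4 were higher and 1 lower at day 1, 2 higher at day 3 and 4 higher at day 7. The medians there were 0.19, -0.13 and 0.46. Of 8 myelin genes, 6 were higher at cerebral day 1, with list means of -0.68 to -0.49 against -1.41 to -0.85 in controls. None passed there at day 3 or day 7, where the uncertainty of the offset was part of the test. Their median log2 differences at those days were 0.70 and 0.69, against 0.62 at day 1. In the cord 4 were lower at day 1, none passed at day 3, and 1 was lower at day 7, with medians of -0.37, -0.54 and -0.48. The part of these lists was not tested. Of 8 hypothalamus and pituitary genes, which read 0.66 to 1.62 on average in the cerebral controls, 6 were lower at cerebral day 1 (-0.04 to 0.44), 4 at day 3 (0.24 to 0.52) and 2 at day 7 (0.46 to 2.08), and their part in the cerebral results was not tested either. No defining marker can be called absent, since centred values carry no zero.

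**Figure D2:**
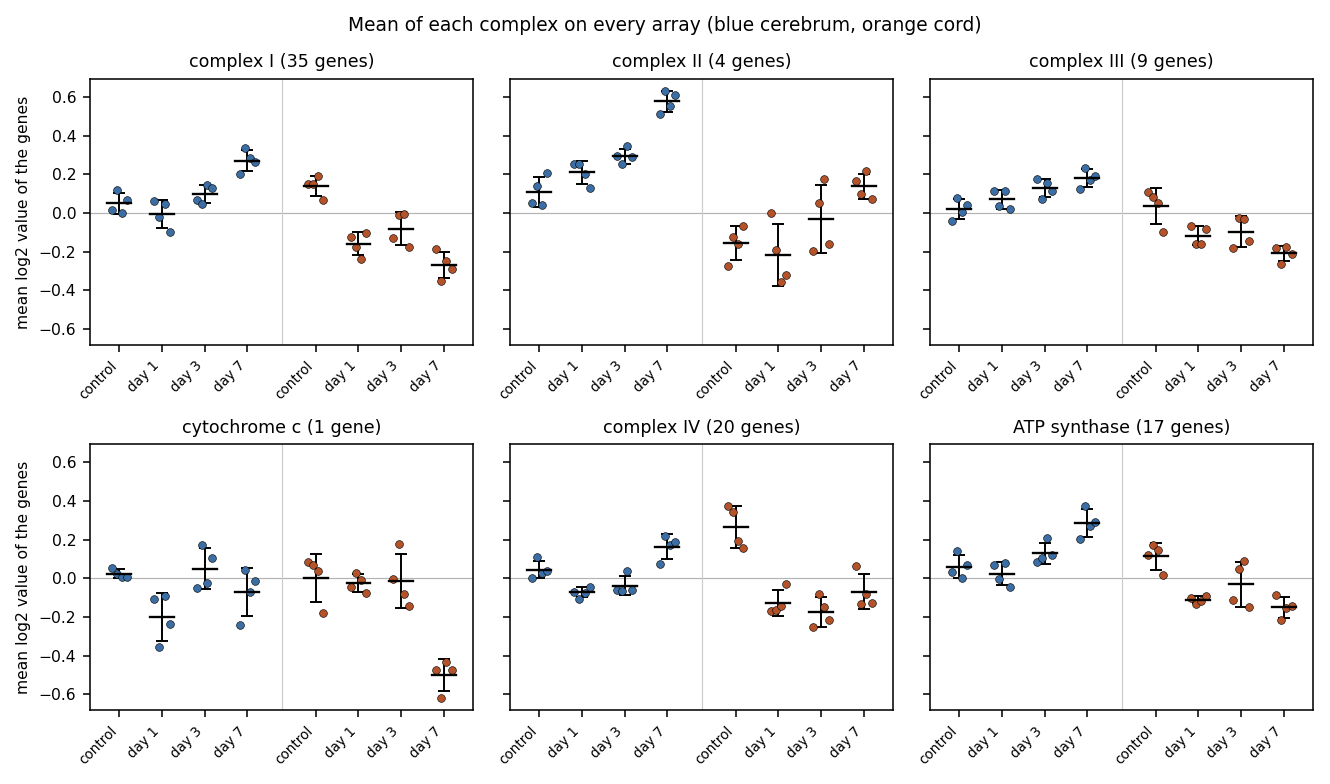
Mean log2 value over the genes of each complex on every array, with 4 points per group, a line at the group mean and bars of 1 SD. Complex I, complex III and ATP synthase lie lower on every injured spinal array than on at least 3 of the 4 spinal controls, whereas complex II at spinal day 7 (0.07 to 0.22) lies above all 4 spinal controls (-0.27 to -0.07).

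Complex I takes electrons from NADH and is the largest of the complexes. In the spinal cord 21 of its 35 subunits were lower and 2 higher at day 1, 11 lower and 0 higher at day 3, and 19 lower and 0 higher at day 7. Averaged over the 35 genes, the spinal controls read 0.15, 0.15, 0.19 and 0.07, and the day 7 arrays -0.19, -0.35, -0.25 and -0.29. In the cerebrum 6 were lower and 1 higher at day 1, none passed at day 3, and 1 was higher at day 7. For these counts and those of the other complexes with all controls, the shares of all genes are those given above for each comparison. With spinal controls 3 and 4 only, complex I had 17, 5 and 15 lower and 1, 1 and 0 higher at spinal days 1, 3 and 7. Complex III then had 3, 1 and 2 lower and 1, 0 and 1 higher. Complex IV had 9, 3 and 9 lower and 0, 0 and 1 higher. ATP synthase had 6, 3 and 6 lower and 2, 1 and 2 higher.

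Ndufb2, an accessory subunit of the membrane arm (chromosome 6 from 39592565 to 39599843), showed the fall clearly. Spinal controls read 0.59, 0.63, 0.56 and 0.46, day 1 arrays -0.15, -0.22, -0.34 and -0.15, day 3 arrays -0.40, 0.02, 0.02 and -0.02, and day 7 arrays -0.28, -0.64, -0.34 and -0.45. Every injured spinal array lay below every control. The log2 differences were -0.77 ± 0.10 (adjusted p = 4.51e-07), -0.66 ± 0.10 (adjusted p = 0.000145) and -0.99 ± 0.10 (adjusted p = 1.76e-08). In the cerebrum, controls read 0.23, 0.37, 0.15 and 0.32, day 1 arrays -0.28, -0.31, -0.31 and -0.33, and day 7 arrays 0.30, 0.60, 0.49 and 0.61. Ndufb2 was lower there at day 1 only (-0.57 ± 0.10, adjusted p = 0.000102), and its day 7 value of 0.24 ± 0.10 did not pass (adjusted p = 0.838).

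Ndufs7, a core iron-sulfur subunit on the way to quinone (chromosome 10 from 80249105 to 80256794), fell later. Spinal controls read 0.42, 0.23, 0.62 and 0.10, day 1 arrays -0.01, 0.01, 0.10 and 0.32, and day 7 arrays -0.37, -0.51, -0.55 and -0.62. The day 1 arrays overlapped the controls and the day 7 arrays did not. The difference was -0.24 ± 0.12 at day 1 (adjusted p = 0.117), -0.45 ± 0.12 at day 3 (adjusted p = 0.0483) and -0.86 ± 0.12 at day 7 (adjusted p = 9.8e-06). The day 3 call was lost without any of spinal control 1 (-0.43, adjusted p = 0.113), spinal control 3 (-0.36, adjusted p = 0.206) and spinal day 3 replicates 2, 3 and 4 (adjusted p = 0.116, 0.0618 and 0.127). Other falls at spinal day 7 were Ndufa6 (-0.85 ± 0.11), Ndufa5 (-0.78 ± 0.08), Ndufb9 (-0.74 ± 0.09) and Ndufa3 (-0.74 ± 0.10), all accessory subunits.

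Calls against control were too few among the core subunits of complex I to be told from the shares of all genes. Of 7 nuclear-encoded core subunits 6 were measured. At spinal day 1, 1 was higher and 1 lower, where 15.8% of all genes were higher and 16.1% lower. Only Ndufs7 was lower at spinal day 3 and day 7, where 9.65% and 16.6% of all genes were lower. At cerebral day 1, 1 was higher and 0 lower, where 8.91% of all genes were higher. At cerebral day 7 none passed, though all 6 lay above 0 with a median of 0.39. In 5 all day 7 arrays lay above all controls, as they did in 13.9% of all genes. In the difference between the tissue responses at day 7, 5 of the 6 were lower and all 6 lay below 0, with a median of -0.40, where 14.6% of all genes were lower. Ndufv1, which binds the flavin that accepts electrons from NADH, read -0.60, -0.43, -0.16 and -0.11 in spinal controls and 0.17, 0.00, -0.14 and -0.00 at day 1. The ranges overlapped slightly, and the difference of 0.33 ± 0.12 passed (adjusted p = 0.0308). That call was lost without spinal control 1 (0.24, adjusted p = 0.133), control 2 (0.30, adjusted p = 0.0803), day 1 replicate 1 (0.28, adjusted p = 0.1) or day 1 replicate 2 (0.33, adjusted p = 0.0547), and with spinal controls 3 and 4 only it was 0.14 (adjusted p = 0.464). Cerebral controls read -0.14, 0.16, -0.04 and 0.26 for Ndufv1 and day 1 arrays 0.50, 0.50, 0.36 and 0.33, all above the controls. This rise was 0.36 ± 0.12 (adjusted p = 0.0338), and it was lost without cerebral control 1 or 3 (0.29 and 0.33, adjusted p = 0.123 and 0.0912) or without cerebral day 1 replicate 1 or 2 (adjusted p = 0.0869 and 0.0833).

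Ndufb10, an accessory subunit, read 0.23, -0.00, 0.22 and 0.22 in spinal controls and -0.40, -0.50, -0.23 and -0.39 at day 7 (-0.55 ± 0.10, adjusted p = 0.00295). No day 7 array reached the lowest control. In cerebral day 7 arrays it read -0.05, 0.29, 0.21 and 0.15, which overlapped controls of -0.25, 0.01, -0.32 and 0.00. Ndufa9 read -0.51, -0.07, -0.45 and -0.44 in spinal controls and 0.02, -0.24, 0.05 and -0.11 at day 7. These overlapped, and the difference of 0.30 ± 0.11 did not pass (adjusted p = 0.316). Ndufb4b was higher at cerebral day 7 (0.46 ± 0.09, adjusted p = 0.026) and lower at spinal day 7 (-0.46 ± 0.09, adjusted p = 0.00592). It is uncertain as a separate gene, because it is a near copy of Ndufb4 and lies within Dock8, which was itself higher at both times (1.26 ± 0.22 and 2.72 ± 0.22).

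Complex II oxidises succinate and feeds quinone without pumping protons. None of its 4 subunits was called lower than control at any day in either tissue. With 4 genes this cannot be told from the shares of all genes, of which at most 16.6% were lower. At spinal day 1, 3 of the 4 lay below 0 and 1 above, with a median of -0.10. At spinal day 7, 1 lay below 0 and 3 above, with a median of 0.42. In the cerebrum at day 7, Sdha and Sdhd were higher, and in the spinal cord Sdhb was higher at day 3 and day 7.

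Sdha lies on chromosome 13 from 74322255 to 74350240. Its cerebral controls read 0.10, 0.29, 0.20 and 0.76 and its day 7 arrays 1.15, 1.54, 1.22 and 1.37, without overlap. The rise was 0.98 ± 0.19 (adjusted p = 0.00267), or 0.84 with cerebral controls 3 and 4 only (adjusted p = 0.0662). In the spinal cord, controls read -0.41, -0.62, -0.38 and -0.32 and day 7 arrays 0.17, -0.05, 0.29 and 0.04, also without overlap, but the difference of 0.54 ± 0.19 did not pass (adjusted p = 0.0837).

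Sdhb lies on chromosome 4 from 140961271 to 140979198. Spinal controls read -0.35, -0.32, -0.28 and -0.30, day 1 arrays -0.11, -0.06, -0.32 and -0.15, day 3 arrays 0.21, 0.18, 0.42 and 0.07, and day 7 arrays 0.14, 0.27, 0.20 and 0.09. Day 3 and day 7 arrays all lay above the controls, and 1 day 1 array did not. The differences were 0.15 ± 0.08 (adjusted p = 0.175), 0.53 ± 0.08 (adjusted p = 0.000848) and 0.48 ± 0.08 (adjusted p = 0.00224). In the cerebrum at day 7, Sdhb read 0.60, 0.48, 0.51 and 0.42 against 0.08, 0.20, 0.06 and 0.20, above all controls. The difference of 0.37 ± 0.08 did not pass the test against the bound for separately centred arrays (adjusted p = 0.153). Sdhd, a membrane anchor, read 0.51, 0.66, 0.64 and 0.67 at cerebral day 7 against 0.00, 0.02, -0.07 and -0.00 in controls (0.63 ± 0.11, adjusted p = 0.00504). Sdhc, the other anchor, passed in none of the 10 comparisons.

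**Figure D3:**
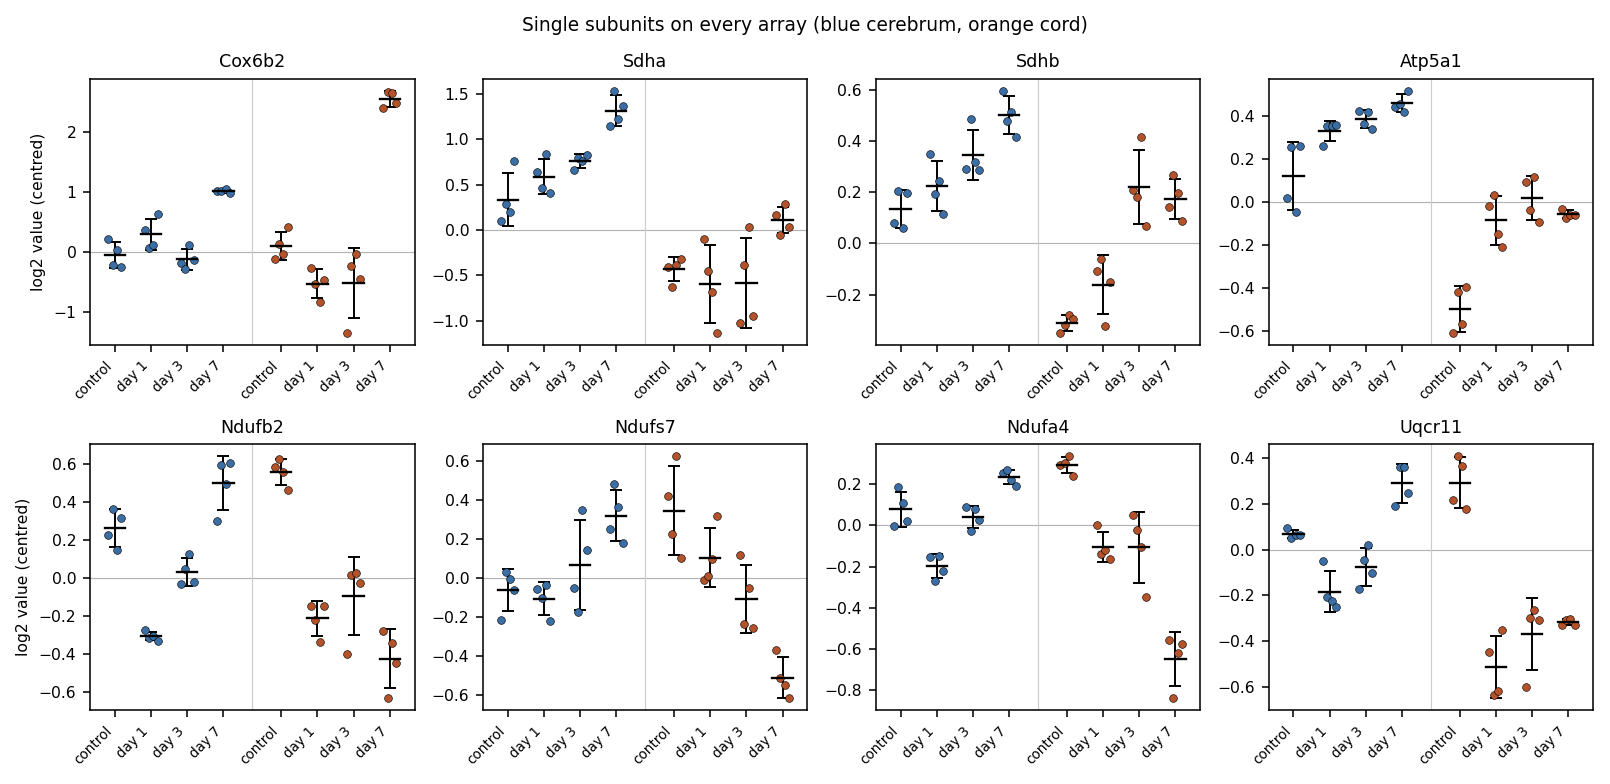
Log2 values of 8 subunits on every array, with the group mean and 1 SD, each panel with its own axis. Cox6b2 reads 2.39 to 2.67 at spinal day 7 and 0.99 to 1.06 at cerebral day 7, Sdha, Sdhb and Atp5a1 lie above control at spinal day 7, and Ndufb2, Ndufs7, Ndufa4 and Uqcr11 lie below it.

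Complex III passes electrons from quinone to cytochrome c. After spinal injury 3 of its 9 genes were lower and 1 higher at day 1, 2 lower at day 3 and 4 lower at day 7. Uqcr11, a small subunit (chromosome 10 from 80402997 to 80406821), read 0.22, 0.41, 0.37 and 0.18 in spinal controls, -0.45, -0.63, -0.62 and -0.35 on day 1 arrays, -0.60, -0.30, -0.26 and -0.31 on day 3 arrays, and -0.33, -0.31, -0.30 and -0.33 on day 7 arrays. All 12 injured arrays lay below the controls. The differences were -0.81 ± 0.09 (adjusted p = 3.61e-08), -0.66 ± 0.09 (adjusted p = 3.16e-05) and -0.61 ± 0.09 (adjusted p = 7.5e-05). Cyc1, the haem subunit that hands electrons to cytochrome c, was lower at day 7 (-0.43 ± 0.08, adjusted p = 0.00577).

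Uqcrc1, a core protein of complex III, rose instead. Cerebral controls read -0.27, -0.13, -0.19 and -0.11, day 1 arrays 0.53, 0.41, 0.48 and 0.36, day 3 arrays 0.32, 0.31, 0.58 and 0.22, and day 7 arrays 0.17, 0.22, 0.04 and 0.10. All 12 injured arrays lay above the controls, by 0.62 ± 0.10 at day 1 (adjusted p = 7.13e-05), 0.53 ± 0.10 at day 3 (adjusted p = 0.012) and 0.31 ± 0.10 at day 7 (adjusted p = 0.496). It was the 1 member that passed at cerebral day 3, and without cerebral day 3 replicate 3 its value was 0.46 (adjusted p = 0.0678), while Cox6a1, picked out here after its value was seen, was then called lower (-0.41, adjusted p = 0.0496). At spinal day 1 Uqcrc1 read 0.06, 0.10, 0.04 and 0.03 against -0.03, -0.06, -0.43 and -0.51 (0.32 ± 0.10, adjusted p = 0.0159). That call was lost without spinal control 3 (0.26, adjusted p = 0.0703) or control 4 (0.23, adjusted p = 0.0877). With controls 3 and 4 only, it was 0.53 at day 1 (adjusted p = 0.000607) and 0.51 at day 7 (adjusted p = 0.01).

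Cycs encodes cytochrome c, the mobile carrier between complexes III and IV. Spinal controls read 0.09, 0.07, 0.04 and -0.18, day 1 arrays -0.04, 0.03, -0.01 and -0.08, and day 7 arrays -0.47, -0.62, -0.43 and -0.47. The day 1 arrays lay within the controls and the day 7 arrays below all of them. The day 7 difference was -0.50 ± 0.09 (adjusted p = 0.00216), or -0.43 with spinal controls 3 and 4 only (adjusted p = 0.0513) and -0.38 after quantile normalisation (adjusted p = 0.104). At cerebral day 7 the value was -0.09 ± 0.09 and did not pass (adjusted p = 1).

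Complex IV reduces oxygen to water. After spinal injury 12 of its 20 subunits were lower and 0 higher at day 1, 6 lower and 0 higher at day 3, and 11 lower and 1 higher at day 7. The 11 lower at spinal day 7 included Ndufa4, the muscle isoform Cox8b, and 9 others, among them Cox6a1 at -0.77 ± 0.08, Cox8a at -0.61 ± 0.08, Cox5a at -0.59 ± 0.10, Cox6b1 at -0.49 ± 0.09 and Cox4i1 at -0.45 ± 0.07. Cox7a2, the general counterpart of Cox7a1, did not pass (-0.23 ± 0.09, adjusted p = 0.508), nor did Cox7a2l (-0.26 ± 0.11, adjusted p = 0.958). In the cerebrum 4 were lower at day 1, 0 passed at day 3, and 1 was higher at day 7.

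Ndufa4, on chromosome 6 from 11900372 to 11907450, had the smallest p of the falls at spinal day 7. Spinal controls read 0.29, 0.30, 0.33 and 0.24, day 1 arrays 0.00, -0.14, -0.12 and -0.16, and day 7 arrays -0.55, -0.84, -0.62 and -0.57. Both days lay below all controls, by -0.40 ± 0.08 (adjusted p = 0.000487) and -0.94 ± 0.08 (adjusted p = 3.38e-09). In the cerebrum Ndufa4 read -0.00, 0.18, 0.11 and 0.02 in controls, -0.16, -0.27, -0.15 and -0.22 at day 1 and 0.25, 0.27, 0.22 and 0.19 at day 7. The cerebral fall at day 1 passed (-0.28 ± 0.08, adjusted p = 0.0211), though not without cerebral control 2 (adjusted p = 0.0722), control 3 (adjusted p = 0.0502) or day 1 replicate 2 (adjusted p = 0.0616), and the cerebral day 7 value of 0.16 ± 0.08 did not (adjusted p = 1).

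Cox6b2 rose more than any other member in both tissues at day 7. It encodes an isoform of the Cox6b subunit, which sits on the side of complex IV that faces cytochrome c, and lies on chromosome 7 from 4751792 to 4753094. Spinal controls read -0.11, 0.13, -0.03 and 0.42, day 1 arrays -0.26, -0.53, -0.83 and -0.47, day 3 arrays -1.34, -0.23, -0.03 and -0.45, and day 7 arrays 2.39, 2.67, 2.65 and 2.49. It was lower at day 1 without overlap (-0.63 ± 0.18, adjusted p = 0.00916) and higher at day 7 without overlap (2.45 ± 0.18, adjusted p = 5.32e-12). The day 3 value of -0.62 ± 0.18 passed (adjusted p = 0.0461) but rested on replicate 1, without which it was -0.34 (adjusted p = 0.339). It was also lost without spinal control 2, 3 or 4 (adjusted p = 0.0698, 0.0514 and 0.158) or day 3 replicate 4 (adjusted p = 0.0586). Cerebral controls read 0.22, -0.21, 0.03 and -0.24 and day 7 arrays 1.01, 1.01, 1.06 and 0.99, a rise of 1.07 ± 0.18 (adjusted p = 0.000761). The size of both rises depends on the rebuilt offset, and on the values as deposited they were 1.74 in the cord (adjusted p = 2.55e-09) and 0.36 in the cerebrum (adjusted p = 0.218). The general form Cox6b1 was lower at spinal day 7 and did not pass in the cerebrum.

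Of the muscle isoforms of complex IV, Cox8b was high in the same spinal controls as the muscle markers. Cox8b, on chromosome 7 from 140898942 to 140900446, read 2.40, 2.40, 0.24 and 0.03 in spinal controls 1 to 4, where the 18 muscle markers averaged 3.37, 2.73, 1.06 and 0.11. Its injured spinal arrays ran from -0.67 to 0.17 and its cerebral arrays from -0.70 to 0.15. It was called lower at spinal day 1 (-1.55 ± 0.33, adjusted p = 0.000573), day 3 (-1.80 ± 0.33, adjusted p = 0.00108) and day 7 (-1.61 ± 0.33, adjusted p = 0.000417). With spinal controls 3 and 4 only, these values were -0.42, -0.67 and -0.48 and none passed (adjusted p = 0.129, 0.278 and 0.19), and its difference between control groups was 0.24 (adjusted p = 0.424). Cox6a2 read 0.40, 0.75, -0.56 and -0.33 in the same controls and passed in no comparison with all arrays. With spinal controls 3 and 4 only, it was lower in spinal than in cerebral controls (-0.69, adjusted p = 0.000455), against -0.18 ± 0.18 with all 4. Of the 18 muscle markers, 16 were lower at spinal day 1, 15 at day 3 and 13 at day 7, and 4, 2 and 2 were lower with controls 3 and 4 only.

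Cox7a1, on chromosome 7 from 30184171 to 30186030, took the same order as the muscle markers over spinal controls 1 to 4. At spinal day 7, unlike Cox8b, it read as high as in the controls. Its difference between control groups was 1.35 with spinal controls 3 and 4 only (adjusted p = 0.000861). In that setting 11 of the 18 muscle markers were also higher and 1 was lower. Spinal controls read 1.95, 1.70, 1.56 and 0.89, day 1 arrays -0.27, -0.01, 0.19 and 0.48, day 3 arrays -0.24, 1.75, 1.16 and 0.67, and day 7 arrays 2.02, 1.82, 1.34 and 1.22. It was lower at day 1 (-1.43 ± 0.25, adjusted p = 6.72e-05), also with controls 3 and 4 only (-1.13, adjusted p = 0.00676), and overlapped the controls at day 7 (0.07 ± 0.25, adjusted p = 0.977), when the muscle markers averaged 0.11 to 0.54. In the cerebrum it read 0.61, 0.74, 0.63 and 0.86 at day 7, above all 4 controls of -0.15, 0.01, -0.17 and -0.18, while muscle markers there averaged -0.31 to -0.19. That difference of 0.83 ± 0.25 did not pass (adjusted p = 0.09). Brown fat also uses Cox7a1 and Cox8b, and was followed by 7 genes other than Cox8b, of which 1 was higher and 0 lower at spinal day 7. That gene was Fabp4, a fatty acid binding protein (4.50 ± 0.49, adjusted p = 1.57e-07), while Ucp1, which defines brown fat, did not pass (0.48 ± 0.31, adjusted p = 0.394). The mean of the 7, which includes Fabp4, was 0.85 to 1.51 there against 0.02 to 0.75 in spinal controls. With Cox8b included, the median log2 difference of the 8 brown fat genes at spinal day 7 was 0.05. The part of brown fat genes in these values was not tested.

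**Figure D4:**
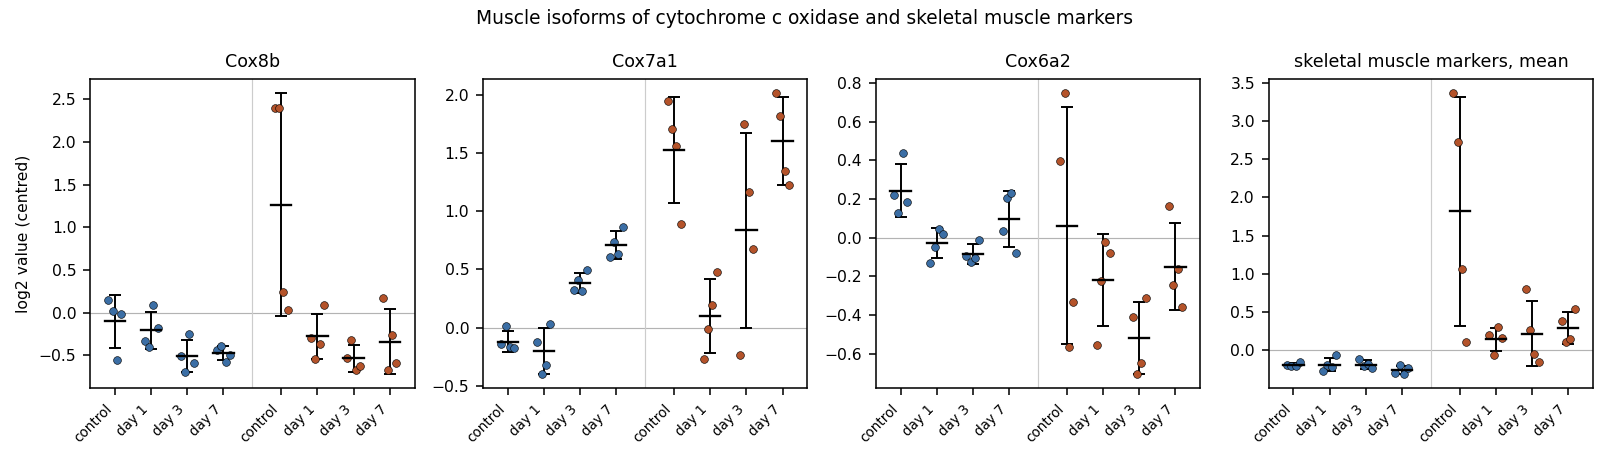
Log2 values of the 3 muscle isoforms of complex IV and the mean of 18 skeletal muscle markers on every array, with the group mean and 1 SD. Cox8b and the markers are highest in spinal controls 1 and 2. Cox7a1 is at 1.22 to 2.02 at spinal day 7, where the marker mean is 0.11 to 0.54.

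Isoforms associated with low oxygen did not pass. Cox4i2, the alternative form of Cox4i1, read -0.22, -0.46, -0.45 and -0.27 at spinal day 7 against -0.02, 0.05, 0.18 and -0.12, below all controls, with a difference of -0.37 ± 0.11 (adjusted p = 0.122). Ndufa4l2, a hypoxia-inducible relative of Ndufa4, read 0.15, 0.14, 0.18 and -0.03 at spinal day 1 against -0.09, -0.10, 0.08 and 0.24 in controls, with overlap, and its difference was 0.08 ± 0.11 (adjusted p = 0.623). Across all 10 comparisons, with all arrays, both genes were among the 10 members that never passed, with Atp5d, Cox6a2, Cox7b2, Ndufa7, Ndufv2, Sdhc, Uqcrc2 and Uqcrfs1.

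ATP synthase makes ATP with a catalytic head on a membrane rotor. In the spinal cord 8 of its 17 genes were lower and 2 higher at day 1, 3 lower and 1 higher at day 3, and 7 lower and 2 higher at day 7. At day 1 several stalk and membrane subunits fell while the head subunits Atp5a1 and Atp5b rose, a grouping seen after the values were known. Atp5j, coupling factor 6 of the outer stalk, read 0.90, 0.63, 0.84 and 0.40 in spinal controls, -0.28, -0.17, -0.25 and -0.15 at day 1 and -0.09, -0.07, -0.07 and -0.10 at day 7. Both days lay below all controls, by -0.90 ± 0.10 (adjusted p = 8.94e-08) and -0.77 ± 0.10 (adjusted p = 8.74e-06). Atp5k read 0.52, 0.55, 0.75 and 0.39 in controls and -0.14, -0.42, -0.15 and -0.22 at day 7 (-0.79 ± 0.12, adjusted p = 0.000168). Atp5mpl, a small membrane subunit, read 0.52, 0.64, 0.45 and 0.49 in controls and -0.20, -0.26, -0.24 and -0.23 at day 7 (-0.76 ± 0.08, adjusted p = 1.94e-07). In these genes too no day 7 array reached a control.

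The alpha subunit Atp5a1 rose at each spinal day. Spinal controls read -0.61, -0.42, -0.57 and -0.40, day 1 arrays -0.02, 0.03, -0.15 and -0.21, day 3 arrays 0.09, -0.04, 0.11 and -0.09, and day 7 arrays -0.03, -0.07, -0.06 and -0.06. All 12 injured arrays lay above the controls, by 0.41 ± 0.08 (adjusted p = 0.00029), 0.52 ± 0.08 (adjusted p = 0.00098) and 0.44 ± 0.08 (adjusted p = 0.00637). Atp5b read -0.47, -0.31, -0.30 and -0.44 in spinal controls and 0.02, 0.08, -0.02 and -0.16 at day 1, again without overlap (0.36 ± 0.08, adjusted p = 0.000923), and did not pass at day 3 or day 7. Atp5c1, the gamma subunit that turns within the head, rose in the cerebrum at day 1, where it read 0.62, 0.62, 0.78 and 0.48 against -0.04, 0.16, 0.05 and 0.11 (0.55 ± 0.10, adjusted p = 0.000327). Atp5pb read 0.20, -0.04, 0.28 and -0.16 at cerebral day 1 against 0.32, 0.52, 0.57 and 0.88 in controls (-0.50 ± 0.15, adjusted p = 0.0197). This fall was lost without cerebral control 4 (-0.40, adjusted p = 0.0916) or without day 1 replicate 2 or 4 (-0.46 and -0.43, adjusted p = 0.0563 and 0.0749).

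The genes for subunit c, which forms the rotor ring, diverged. Atp5g2 rose in both tissues at day 7. It read 0.67, 0.53, 0.38 and 0.43 at spinal day 7 against 0.20, -0.02, -0.08 and -0.07 (0.50 ± 0.09, adjusted p = 0.00291), and 0.41, 0.70, 0.40 and 0.53 at cerebral day 7 against -0.03, 0.00, -0.00 and -0.11 (0.54 ± 0.09, adjusted p = 0.00467). The groups did not overlap in either tissue, but on the values as deposited the differences were 0.21 and 0.26 and did not pass (adjusted p = 0.0589 and 0.0597). Atp5g1 and Atp5g3, which encode the same mature protein, were lower at spinal day 7 (-0.47 ± 0.09 and -0.79 ± 0.08, adjusted p = 0.00419 and 8.2e-08).

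Spinal responses were then set against cerebral responses of the same day, a difference in which the rebuilt offset drops out. At day 1, 18 members were lower in the cord response and 0 higher, where 11.3% of all genes differed (6.58% lower and 4.7% higher), with a member median of -0.19 against 0.03. At day 3, 21 were lower and 0 higher, where 9.27% differed (5.19% lower and 4.08% higher), with medians of -0.26 and -0.01. At day 7, 58 were lower and 1 higher, where 27.6% differed (14.6% lower and 13% higher), with medians of -0.55 and -0.01. With spinal controls 3 and 4 only, 8, 9 and 50 were lower at days 1, 3 and 7. At day 3, 13 were lower without spinal day 3 replicate 1, spinal control 1 or spinal control 3, 12 without cerebral control 3 or 4 or cerebral day 3 replicate 3, and 11 without cerebral day 3 replicate 4. At day 1, 11 were lower without cerebral control 3 or without cerebral day 1 replicate 1 or 3.

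At day 7 the difference was called in most complexes. It was lower in 30 of 35 complex I subunits, 4 of 9 in complex III, Cycs, 13 of 20 in complex IV and 10 of 17 in ATP synthase. In complex II it was lower in 0 of 4, where 14.6% of all genes were lower, and 4 genes are too few to set it apart by this count. Of these 4, 3 lay below 0 and 1 above, with a median of -0.19. Ndufs7 differed by -1.24 ± 0.17 (adjusted p = 1.3e-06), Ndufb2 by -1.22 ± 0.14 (adjusted p = 9.24e-08), Ndufa6 by -1.16 ± 0.15 (adjusted p = 1.23e-06), Ndufa4 by -1.09 ± 0.12 (adjusted p = 6.39e-08) and Atp5j by -0.97 ± 0.14 (adjusted p = 6.71e-06). These genes were lower than control in the cord and had cerebral values above 0. The 1 member with a higher spinal response was Cox6b2 (1.38 ± 0.26, adjusted p = 0.000138), which at day 1 had a lower one (-0.98 ± 0.26, adjusted p = 0.0131). Of the 14 neuronal genes, 12 also had a lower spinal response at day 7, with a median of -1.12, and 8 of 11 macrophage and microglia genes had a higher one, with a median of 1.33. Of 8 myelin genes, 6, 7 and 7 had a lower spinal response at days 1, 3 and 7, with medians of -0.90, -1.21 and -1.16. Their part in this difference was not tested.

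Genes that build or feed the chain were counted on separate lists. Of 44 measured assembly factors, which insert cofactors and join subunits, 14 were lower and 3 higher at spinal day 7, where 16.6% of all genes were lower and 15.2% higher, with a median of -0.20 against -0.10 for all genes. The largest falls were Uqcc1 (-1.28 ± 0.13, adjusted p = 2.03e-08) and Ttc19 (-0.89 ± 0.13, adjusted p = 2.86e-05), both for complex III, and Tmem126b, for complex I, was higher (0.79 ± 0.15, adjusted p = 0.000694). At spinal day 1, 11 were lower and 1 higher, against 16.1% and 15.8% of all genes, led by Cox20, a chaperone of complex IV (-1.26 ± 0.10, adjusted p = 8e-11). In the cerebrum 6 were lower and 2 higher at day 1 (8.22% and 8.91% of all genes), 1 was lower at day 3, and 1 was higher at day 7.

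Of 15 measured genes of mitochondrial biogenesis and mitochondrial DNA expression, 3 were lower and 2 higher at spinal day 7, shares near those of all genes (16.6% lower and 15.2% higher). The lower ones were the nuclear receptor Esrrg (-2.24 ± 0.18, adjusted p = 7.07e-11) and the coactivators Ppargc1b (-1.24 ± 0.13, adjusted p = 2.38e-08) and Ppargc1a (-1.13 ± 0.13, adjusted p = 1.16e-07), known for driving respiratory genes. The higher ones were Tfb2m, which starts mitochondrial transcription (0.83 ± 0.13, adjusted p = 6.11e-05), and Ssbp1, which binds single-stranded mitochondrial DNA (0.65 ± 0.10, adjusted p = 0.000121). Esrrg, Ppargc1a and Ppargc1b were also lower at spinal day 1 and day 3. In the cerebrum 0 of 15 passed at day 1, and Ppargc1b was lower at day 3 (-0.56 ± 0.13) and day 7 (-0.58 ± 0.13).

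Of 15 measured genes of the citric acid cycle and pyruvate dehydrogenase, 4 were lower and 1 higher at spinal day 7, where 16.6% of all genes were lower and 15.2% higher. Mdh2, mitochondrial malate dehydrogenase, had the largest difference (-1.38 ± 0.13, adjusted p = 1.41e-09), and Suclg1, a subunit of succinate-CoA ligase, was higher (0.47 ± 0.11, adjusted p = 0.0187). Suclg1 was also higher in the cerebrum at day 1, day 3 and day 7 (0.63, 0.57 and 0.69, each ± 0.11). At cerebral day 1, 6 of the 15 were higher and 0 lower, against 8.91% and 8.22% of all genes. Of 11 measured carriers and porins, 2 were higher and 1 lower at spinal day 7, which for the higher ones is near the 15.2% of all genes. Slc25a5, an exchanger of ADP and ATP, rose (0.64 ± 0.09, adjusted p = 6.16e-05), as did the phosphate carrier Slc25a3 (0.38 ± 0.09, adjusted p = 0.0445), and the porin Vdac1 fell (-0.58 ± 0.11, adjusted p = 0.00208).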

How the data were processed

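Total RNA (10 ng per sample, per the labels' protocols) was labelled with biotin and hybridised to 1-colour arrays. The authors deposited 1 table of log2 values for 22206 probes and 32 arrays, centred per probe, as the values themselves show (from -5.58 to 8.04, with array medians of -0.0553 to 0.0333). Scanner software, build and normalisation are not named by the labels or the file. Depth has no meaning for arrays, and 4 arrays per group limit the precision. Of the probes, 19572 had 1 gene symbol, 0 several and 2634 none. They stood for 19505 genes, and of 55 genes with several probes the values were averaged.

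Controls and day 1 arrays together had a median of 0 in 100% of probes. Day 3 and day 7 arrays matched centring with the 8 controls in 86.8% of 5621 and 86.4% of 5127 probes where this could be tested, against 68.6 to 69.2% and 69.7 to 70.1% with other partners. The offset was rebuilt from that condition. It was a single value in 78.0% and 80.1% of probes and otherwise a range, whose middle was used. Day 3 and day 7 were tested against a bound of the range's half-width plus 0.162 and 0.178, the allowance for separate processing, which gave bounds of 0.162 to 0.562 and 0.178 to 0.340 for the members. Other comparisons were tested against 0.

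limma 3.58.1 (R 4.3.3) was fitted to all 32 arrays with a mean for each of 8 groups, which left 24 residual degrees of freedom. P-values were adjusted by Benjamini-Hochberg over all genes in each of 10 comparisons. Errors are standard errors from this fit, whose median residual SD was 0.185, and figures show the SD. The fit was also run on simulated data with independent noise and no difference in processing between days, so that run could not check the allowance. No sample was dropped or imputed. Promoters and positions came from RefSeq on GRCm38.p6, to which all 86 members matched. Figures and motif counts used Python 3.11.15, pandas 2.3.3, numpy 2.4.6 and matplotlib 3.10.9.

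The members, the gene lists and the tests were chosen with earlier results of these data known. Genes were described in detail when they were among the 3 largest called changes in either direction of a comparison, or belonged to the isoform lists. Alternatives were quantile normalisation, scaling to the 75th percentile, array weights, trended robust moderation, the probe with the largest spread, the values as deposited, the offset taken as exact or without allowance, subsets of the controls, fits on the compared groups only, and leaving out each array, with the offset kept as rebuilt from all arrays.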

Additional observations from a re-analysis of the deposited data

Results flagged for a closer look

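In 14 of 256 groups of 4 arrays, 1 array stood farther from the others than Dixon's test allows, and chance flags about 1 in 20 groups. Spinal day 3 replicate 1 was low for Ndufb2 (-0.40, others -0.02 to 0.02) and Uqcr11 (-0.60, others -0.31 to -0.26). Spinal control 2 was high for Ndufa9 (-0.0698, others -0.51 to -0.44) and low for Ndufb10 (-0.00047, others 0.22 to 0.23). Cerebral control 2 was high for Cox7a1 (0.0121, others -0.18 to -0.15). Cerebral day 1 replicate 1 was low for Atp5a1 (0.26, others 0.35 to 0.36), and replicate 3 was high for Ndufa9 (0.59, others 0.32 to 0.36). Cerebral day 3 replicate 1 was low for Ndufb10 (-0.0028, others 0.17 to 0.21), replicate 2 was low for Ndufv1 (0.0630, others 0.26 to 0.27) and high for Sdhb (0.49, others 0.29 to 0.32), and replicate 3 was high for the mean of complex IV (0.0374, others -0.07 to -0.06). Spinal day 1 replicate 2 was low for Cox4i2 (-0.14, others 0.03 to 0.06), and replicate 4 for Ndufa4l2 (-0.0267, others 0.14 to 0.18). Spinal day 7 replicate 2 was low for Atp5pb (-0.44, others 0.04 to 0.08).

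Responses differed between spinal cord and cerebrum, in tests of the difference itself, in 18 members at day 1, 21 at day 3 and 59 at day 7. At day 1 these included Cox8b (-1.44 ± 0.47), Cox7a1 (-1.34 ± 0.36) and Cox6b2 (-0.98 ± 0.26). At day 3 they included Cox7a1 (-1.19 ± 0.36), Ndufb10 (-0.74 ± 0.15) and Atp5k (-0.67 ± 0.17). At day 7 they included Cox6b2 (1.38 ± 0.26), Ndufs7 (-1.24 ± 0.17), Cox8b (-1.23 ± 0.47) and Ndufb2 (-1.22 ± 0.14). With spinal controls 3 and 4 only, Cox8b differed by -0.31 at day 1 and -0.10 at day 7 (adjusted p = 0.477 and 0.831), and Cox7a1 by -1.04 at day 1 and -0.90 at day 3 (adjusted p = 0.0853 and 0.16). The Cox8b call at day 1 was also lost without spinal control 1 (-1.06, adjusted p = 0.0996) or control 2 (-1.06, adjusted p = 0.101) and with several other single arrays left out, and that at day 7 likewise (-0.86 and -0.85, adjusted p = 0.146 and 0.139). The Cox7a1 call at day 3 was lost without spinal day 3 replicate 1 (-0.84, adjusted p = 0.07) and with 6 other single arrays left out in turn.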

How the results depend on the processing

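No called value turned its sign. Of 1024 values for named genes with 1 array left out, 877 kept their call and 147 lost it, and of 896 under the other alternatives 764 kept it and 132 lost it. With 1 array left out, the counts of members called were 29 to 34 for the control comparison, 10 to 16 at cerebral day 1, 1 to 1 at day 3 and 4 to 6 at day 7, 45 to 55 at spinal day 1, 16 to 25 at day 3 and 45 to 48 at day 7, and 11 to 20, 11 to 24 and 53 to 58 for the difference between tissues. Quantile normalisation gave 5 at cerebral day 3, 16 at cerebral day 7, 10 at spinal day 3, 30 at spinal day 7, and 11 and 7 for the difference at day 1 and day 3. Array weights gave 2 at cerebral day 3 and 13 for the difference at day 3. The values as deposited gave 10 and 14 at cerebral day 3 and day 7 and 51 at spinal day 3. The offset taken as exact gave 15, 28 and 47 there, and no allowance gave 10, 28 and 45. Spinal controls 3 and 4 only gave 15 at spinal day 3, and 8 and 9 for the difference at day 1 and day 3. Cerebral controls 1 and 2 only gave 22 for the control comparison, 8, 0 and 2 at cerebral day 1, 3 and 7, and 3 and 3 for the difference at day 1 and day 3. Cerebral controls 3 and 4 only gave 6 and 0 at cerebral day 1 and day 3 and 11 for the difference at day 3. Fits on the compared groups only gave 23 for the control comparison, 10 at cerebral day 1, 7 at spinal day 3 and 5 for the difference at day 3. Fits on fewer controls or groups have fewer arrays. For the other settings the cause was not tested. No paired analysis was possible because the labels give no replicate numbers that groups share.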

Other observations

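At cerebral day 1, when 16 subunits were lower and 4 higher, some genes that feed the chain were higher. Of 15 citric acid cycle and pyruvate dehydrogenase genes, 6 were higher, 0 lower and 9 did not pass, where 8.91% of all genes were higher and 8.22% lower. The 6 were Suclg1 (0.63 ± 0.11, adjusted p = 0.000133), Ogdh (0.52 ± 0.10, adjusted p = 0.000564), Idh3g (0.37 ± 0.11, adjusted p = 0.0254), Cs (0.35 ± 0.10, adjusted p = 0.0109), Dlst (0.33 ± 0.10, adjusted p = 0.0173) and Pdhb (0.31 ± 0.10, adjusted p = 0.0262). The list median was 0.27, against -0.08 for the subunits and -0.01 for all genes. Of 11 carriers and porins, 5 were higher, 0 lower and 6 did not pass, led by Slc25a10, the dicarboxylate carrier (1.03 ± 0.14, adjusted p = 3.58e-06), and Slc25a11, the oxoglutarate carrier (0.64 ± 0.13, adjusted p = 0.000714). These p-values are from limma over all genes, and the lists were not tested against each other.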
